A study of Mus musculus with 15 samples.

Results

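The genes described here encode 10 enzymes of glycerolipid synthesis in the mouse heart: the acyltransferases Gpam, Agpat1, Agpat2, Agpat3, Dgat1, Dgat2, Lpcat3 and Lclat1, and the lipins Lpin1 and Lpin2. They were taken by gene symbol, as all array probes annotated to these symbols, which gave 24 of 32664 probes with 1 symbol and 10 of 19532 genes. The members were chosen by what their enzymes do, but the set was proposed with the knockout differences of these arrays already known, so the values below describe it and give no independent evidence that it stands apart. No filter on low values was used, and all 10 genes were tested.

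The hearts came from male mice of the tamoxifen-induced Acsl1 knockout that the labels write Acsl1H-/-, known as heart-specific, and from their Acsl1flox/flox littermates. Acsl1 encodes a long-chain acyl-CoA synthetase, which activates fatty acids for oxidation and for lipid synthesis. All mice, controls included, received tamoxifen at 75 mg/kg by intraperitoneal injection in corn oil on 4 days, when they were 6 to 8 weeks old, and the labels give their strain as C57Bl/J6. At 10 weeks after tamoxifen there were 4 knockout and 4 control hearts, and at 2 weeks 3 knockout and 4 control hearts, all labelled as biological replicates. No source used here gives the recombinase or its promoter, and without a recombinase control its effect and that of the deletion cannot be told apart. Acsl1 itself was not analysed here.

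Ventricle RNA in Cy5 was hybridised on 15 Agilent 2-colour arrays against RNA of whole neonatal mice (mixed 129Sv and C57BL/6) in Cy3. The deposited values are log ratios, taken here as log2 of heart over reference. That direction is likely from the dyes but not stated, so that an inverted ratio would turn each direction below. Every probe has a median of 0 over the 15 arrays, so a value says where an array stands among the 15 and carries no expression level, and marker levels of the labelled tissue could not be checked. The precision is limited by the number of arrays. In whole ventricle, fewer cells of a type and less RNA per cell cannot be told apart.

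As background, triacylglycerol and most phospholipids are built on glycerol phosphate by adding acyl chains from acyl-CoA. Gpam, an acyltransferase of the outer mitochondrial membrane, adds the first chain, the Agpat enzymes add the next to make phosphatidic acid, the lipins remove its phosphate to give diacylglycerol, and Dgat1 and Dgat2 add the last chain of triacylglycerol. Lpcat3 and Lclat1 act on finished phospholipids: Lpcat3 puts polyunsaturated chains back onto lysophospholipids, and Lclat1 does so for lysocardiolipin, derived from the signature lipid of the inner mitochondrial membrane. Lipins use no acyl-CoA themselves, and Lpin1 is also known as a coactivator of fatty acid oxidation genes.

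In knockout hearts at 10 weeks, 2 of the 10 genes rose, Agpat3 by 0.50 and Lpcat3 by 0.91 on the log2 scale, 1 fell, Lpin1 by 0.41, and the other 7 did not pass the test. The test was limma's moderated test in 1 fit of all 15 arrays, with Benjamini-Hochberg adjustment over all 19532 genes and a call at an adjusted p under 0.05. Of all genes tested, 0.686% were called at 10 weeks, 0.358% higher and 0.328% lower. The 10 genes had a median difference of 0.16, with 7 above 0, against -0.018 over all genes, of which 46.5% lay above 0. At 2 weeks none of the 10 genes was called, against 0.00512% of all genes, and 2 of the 10 had an unadjusted p under 0.05 by the same limma test, as did 7.25% of all genes.

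Agpat3 is a lysophosphatidate acyltransferase of the endoplasmic reticulum and Golgi. It had values of 0.39, 0.39, 0.42 and 0.33 in knockout hearts at 10 weeks, against -0.13, -0.12, -0.13 and -0.08 in control hearts at 10 weeks. All 4 knockout hearts lay above all 4 controls, and the arrays of each group lay close together. The means were 0.38 ± 0.04 in knockout hearts and -0.12 ± 0.02 in control hearts (SD, n = 4 each), a difference of 0.50 ± 0.08 (SE; 95% interval 0.33 to 0.66; limma, adjusted p = 0.0107), which is 1.41-fold. Both probes had all knockout hearts above the controls. Taken singly, A_51_P425490 differed by 0.65 ± 0.07 (limma, adjusted p = 0.00138 over all 32664 probes, of which 0.634% were called), and A_52_P523569 by 0.35 ± 0.10 (adjusted p = 0.211). The call at the gene level held without each of the 15 arrays in turn, with adjusted p between 0.012 and 0.038, and ended when the least variable genes were left out (adjusted p = 0.184), as did that of A_51_P425490 without the least variable probes (0.135).

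Lpcat3, measured by 1 probe, had values of 0.98, 0.94, 0.67 and 0.82 in knockout hearts at 10 weeks, against -0.50, 0.08, 0.19 and 0 in control hearts at 10 weeks. The knockout hearts were again all above the controls, while the controls spread more widely, with replicate 1 the lowest. The means were 0.86 ± 0.14 in knockout hearts and -0.06 ± 0.31 in control hearts (SD, n = 4 each), a difference of 0.91 ± 0.15 (SE; 95% interval 0.59 to 1.24; limma, adjusted p = 0.0150), which is 1.88-fold. Without knockout replicate 2 at 10 weeks the call ended (adjusted p = 0.0552), and so it did when the 10-week arrays were fitted alone (adjusted p = 0.0831). Adjusted over all probes, its 1 probe was called as well (limma, adjusted p = 0.0190). That call ended without knockout replicates 1, 2 or 4 of 10 weeks (adjusted p 0.0517 to 0.0612). It ended too with the 10-week arrays fitted alone (0.101) and without the least variable probes (0.0815).

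Lpin1, the main phosphatidate phosphatase of heart muscle, went the other way. Its values were -0.39, -0.30, -0.15 and -0.24 in knockout hearts at 10 weeks, against 0.08, 0.19, 0.18 and 0.13 in control hearts at 10 weeks. All 4 knockout hearts lay below all 4 controls. The means were -0.27 ± 0.10 in knockout hearts and 0.15 ± 0.05 in control hearts (SD, n = 4 each), a difference of -0.41 ± 0.08 (SE; 95% interval -0.59 to -0.24; limma, adjusted p = 0.0317), which is 0.75-fold. The 4 Lpin1 probes differed by -0.34 to -0.48, all downward, and A_52_P483104 was called by itself at -0.48 ± 0.08 (limma, adjusted p = 0.0210 over all probes). That probe's call ended without knockout replicates 1 or 4 or control replicates 1, 2 or 3 of 10 weeks (adjusted p 0.0589 to 0.0698), with the 10-week arrays fitted alone (0.0962) and without the least variable probes (0.349). The gene's call was near the threshold too: it ended without any single 10-week array other than knockout replicate 3 (adjusted p 0.0616 to 0.0922), with the 10-week arrays fitted alone (0.115) and with the most variable probe in place of the mean (0.313).

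**Figure D1:**
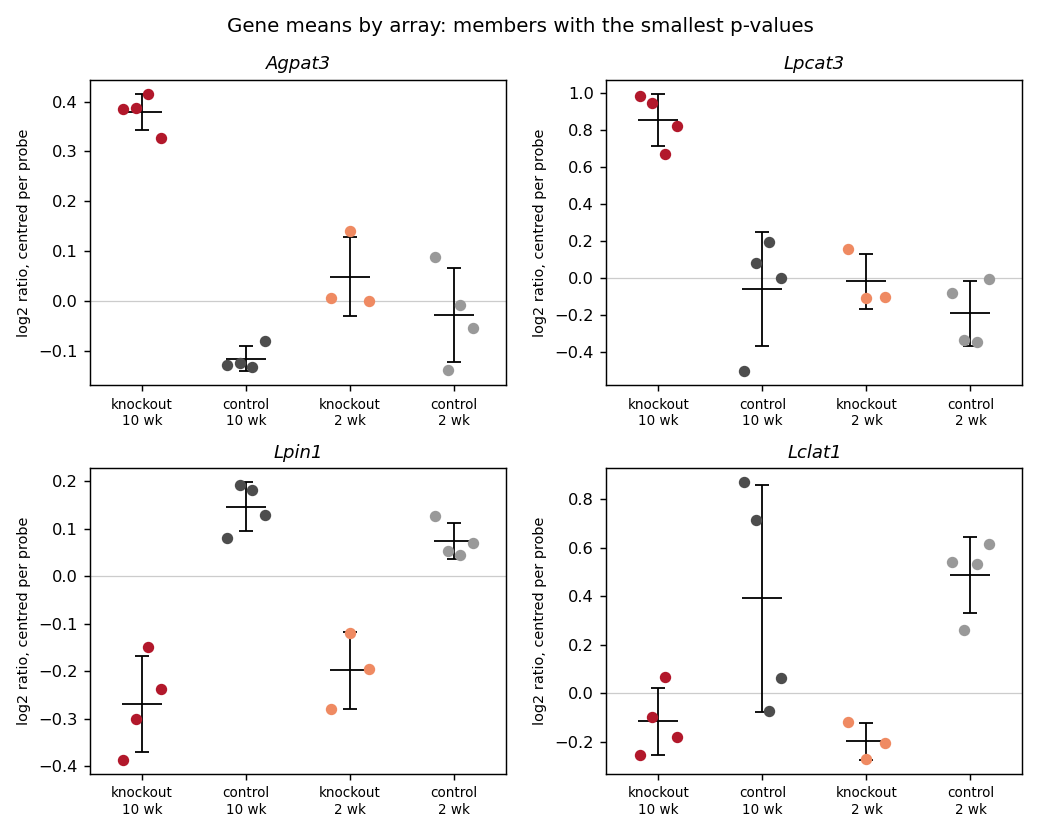
Centred log2 ratios (vertical axis) of the 4 genes with the smallest p at 10 weeks in each array, by group from left to right: knockout and control hearts at 10 weeks, then knockout and control hearts at 2 weeks; points are arrays, and the wide marks with bars are group means ± SD. For Agpat3 and Lpcat3 the 4 knockout hearts at 10 weeks lie above all controls of that time, for Lpin1 they lie below them, and for Lclat1 the groups of that time overlap.

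The promoters of these 3 genes are shown because they are the ones called at 10 weeks. The sequences are the 250 bases before the gene start that RefSeq lists on GRCm38.p6, 5′ to 3′ on the gene's strand: Agpat3 at chr10:78351701-78351950 (minus strand), Lpcat3 at chr6:124662854-124663103 (plus strand) and Lpin1 at chr12:16610967-16611216 (minus strand). Capitals mark matches, on either strand, to the CCAAT box (CCAAT or ATTGG), the GC box (GGGCGG or CCGCCC), the E-box CACGTG and the nuclear receptor half-site (AGGTCA or TGACCT).
Agpat3: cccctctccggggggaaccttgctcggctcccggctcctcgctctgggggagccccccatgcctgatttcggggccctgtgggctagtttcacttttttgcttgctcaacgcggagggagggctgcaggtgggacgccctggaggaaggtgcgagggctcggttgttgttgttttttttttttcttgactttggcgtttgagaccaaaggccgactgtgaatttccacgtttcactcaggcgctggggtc
Lpcat3: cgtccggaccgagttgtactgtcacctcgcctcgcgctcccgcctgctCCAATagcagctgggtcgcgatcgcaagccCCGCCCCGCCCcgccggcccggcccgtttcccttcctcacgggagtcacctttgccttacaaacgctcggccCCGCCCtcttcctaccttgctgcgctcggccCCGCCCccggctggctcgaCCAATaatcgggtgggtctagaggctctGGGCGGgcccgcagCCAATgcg
Lpin1: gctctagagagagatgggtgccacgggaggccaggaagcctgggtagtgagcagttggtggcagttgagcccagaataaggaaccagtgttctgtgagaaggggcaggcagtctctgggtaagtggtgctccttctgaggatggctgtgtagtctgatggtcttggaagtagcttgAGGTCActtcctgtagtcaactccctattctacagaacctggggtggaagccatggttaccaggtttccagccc
The Lpcat3 window, with 70% G and C, holds 3 CCAAT boxes and 5 GC boxes, a pair of which share a base. The Agpat3 window has 59.6% G and C and no match to the 4 motifs, and the Lpin1 window has 54.8% and 1 half-site. Over 32851 windows of the same length, 33.8% hold a CCAAT box, 32.7% a GC box, 6.02% the E-box and 14% a half-site. The matches describe the letters only. RefSeq windows were matched for 8 of the 10 genes.

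Lclat1, the lysocardiolipin acyltransferase, had values of -0.25, -0.10, 0.07 and -0.18 in knockout hearts at 10 weeks, against 0.87, 0.71, -0.07 and 0.06 in control hearts at 10 weeks. Control replicates 1 and 2 were high, and the groups overlapped. The difference was -0.51 ± 0.19 (SE; 95% interval -0.91 to -0.11; limma, unadjusted p = 0.0173, adjusted p = 0.334). Its probes did not spread alike. A_52_P606287 ranged in control hearts at 10 weeks from -0.28 in replicate 3 to 1.5 in replicate 1. A_52_P299358 read -0.20, -0.43, -0.01 and -0.06 in knockout hearts and 0.24, 0.16, 0.13 and 0.37 in control hearts, so that all knockout hearts lay below the controls, with a difference of -0.40 ± 0.13 (limma, adjusted p = 0.274).

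Gpam, measured by 1 probe, showed the widest spread of the 10 genes. It read -0.58, 0.94, 2.26 and 1.46 in knockout hearts at 10 weeks, against 0, -0.88, 0.64 and -0.52 in control hearts at 10 weeks. Knockout replicates 2, 3 and 4 lay above all controls and knockout replicate 1 among them. The difference of 1.21 ± 0.67 (SE; 95% interval -0.25 to 2.66; limma, adjusted p = 0.621) was the largest point estimate of the set and did not pass the test, with an interval that takes in both no change and a difference over 2.

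Agpat1 and Agpat2 make phosphatidic acid like Agpat3, and loss of AGPAT2 causes lipodystrophy in humans. The Agpat1 mean was 0.44 ± 0.35 in knockout hearts and 0.13 ± 0.61 in control hearts at 10 weeks (SD, n = 4 each), a difference of 0.31 with a 95% interval of -0.34 to 0.96. Its probes did not share this rise: A_51_P322612 differed by 0.67 ± 0.59 and A_52_P200465 by -0.06 ± 0.16 (limma, adjusted p = 0.818 and 0.965). The Agpat2 mean was 0.29 ± 0.34 in knockout hearts and 0.14 ± 0.18 in control hearts, a difference of 0.15 with a 95% interval of -0.22 to 0.52. Neither passed the test at the gene level (limma, adjusted p = 0.828 for Agpat1 and 0.866 for Agpat2).

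The 2 Agpat2 probes disagreed in sign. A_51_P238565 read 0.66, 0.63, 0.54 and 0.55 in knockout hearts at 10 weeks, against -0.23, -0.13, -0.28 and -0.04 in control hearts, and differed by 0.77 ± 0.16 (limma, adjusted p = 0.0476 over all probes). A_51_P238563 read 0.35, 0.25, 0.33 and -1.0 in knockout hearts, against 0.55, 0.80, 0.09 and 0.36 in control hearts, and differed by -0.47 ± 0.28 (adjusted p = 0.705). Only the first probe had groups that did not overlap. Its call stood at the edge of the threshold and ended without 12 of the 15 arrays, each of the 8 at 10 weeks included (adjusted p 0.0890 to 0.122 for those 8), and without knockout replicate 1 or control replicates 1, 2 or 3 at 2 weeks (adjusted p 0.0590 to 0.0620).

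The other enzymes of the triacylglycerol branch gave no call. Dgat2 had a mean of 0.15 ± 0.12 in knockout hearts and -0.02 ± 0.04 in control hearts at 10 weeks (SD, n = 4 each), a difference of 0.16 ± 0.10 (95% interval -0.05 to 0.38; limma, adjusted p = 0.663). Of its 3 probes, only A_52_P359739 had all knockout hearts above the controls, with a difference of 0.36 ± 0.13 (adjusted p = 0.369). Dgat1 read 0.72, -0.88, 0.99 and -1.24 in knockout hearts, against 0.05, 0.13, 0.10 and 0.13 in control hearts, with a difference of -0.21 ± 0.45 (95% interval -1.19 to 0.78; adjusted p = 0.946). Its knockout hearts fell on both sides of the controls, and its probes differed by 0.17 and -0.58. The controls lay close together only in the mean of the probes. Singly, they ran from -0.25 to 0.49 at A_51_P510059 and from -0.29 to 0.51 at A_52_P456134. Lpin2 averaged 0.04 ± 0.08 in knockout hearts and 0.01 ± 0.12 in control hearts, and its difference of 0.03 had a 95% interval of -0.24 to 0.30 (adjusted p = 0.978). Its 5 probes ranged from -0.49 to 0.33, so the mean joins probes of opposite sign.

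**Figure D2:**
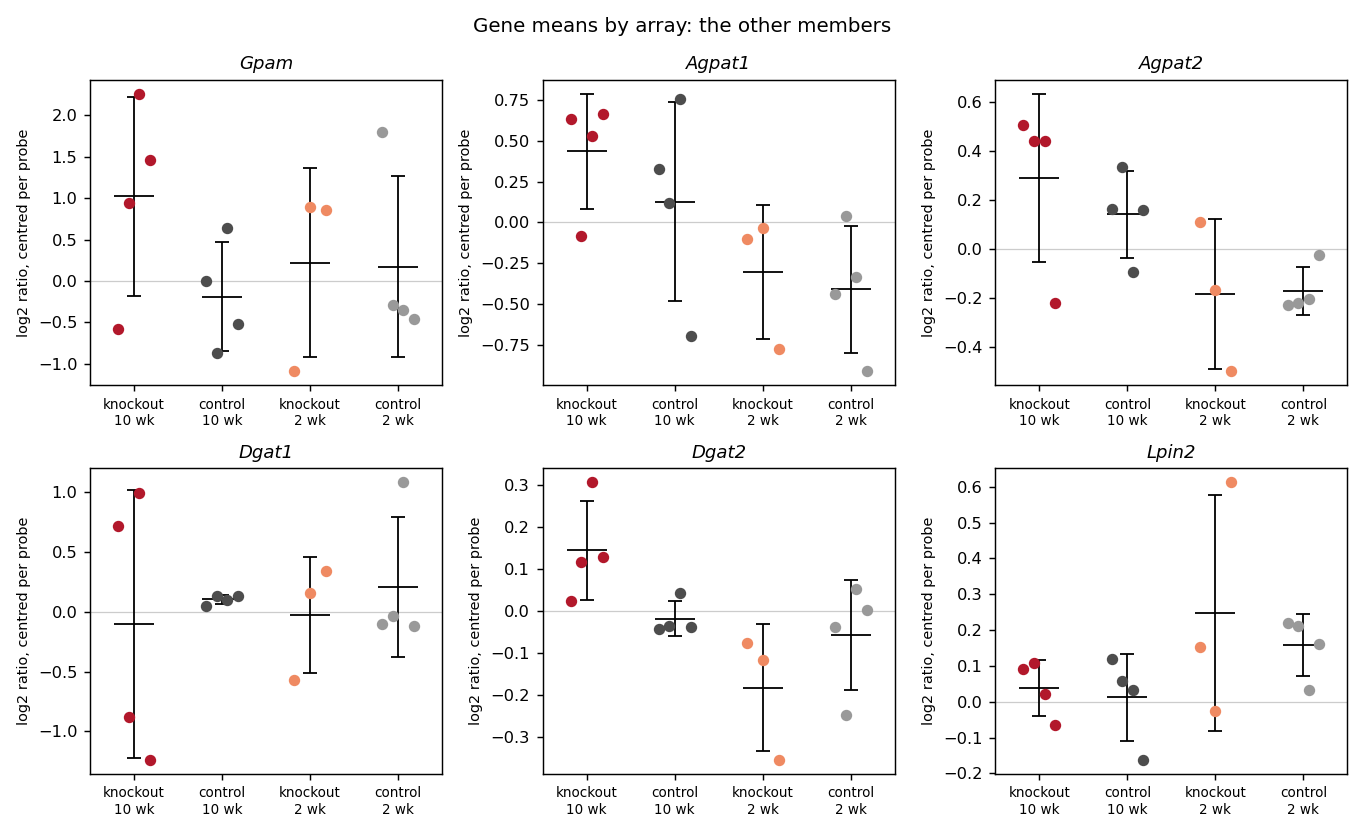
Centred log2 ratios (vertical axis) of Gpam, Agpat1, Agpat2, Dgat1, Dgat2 and Lpin2 in each array, by group from left to right: knockout and control hearts at 10 weeks, then knockout and control hearts at 2 weeks; points are arrays, and the wide marks with bars are group means ± SD. Gpam and Dgat1 spread over more than 2 units within the knockout hearts at 10 weeks, and Dgat2 stays within a fraction of a unit.

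**Figure D3:**
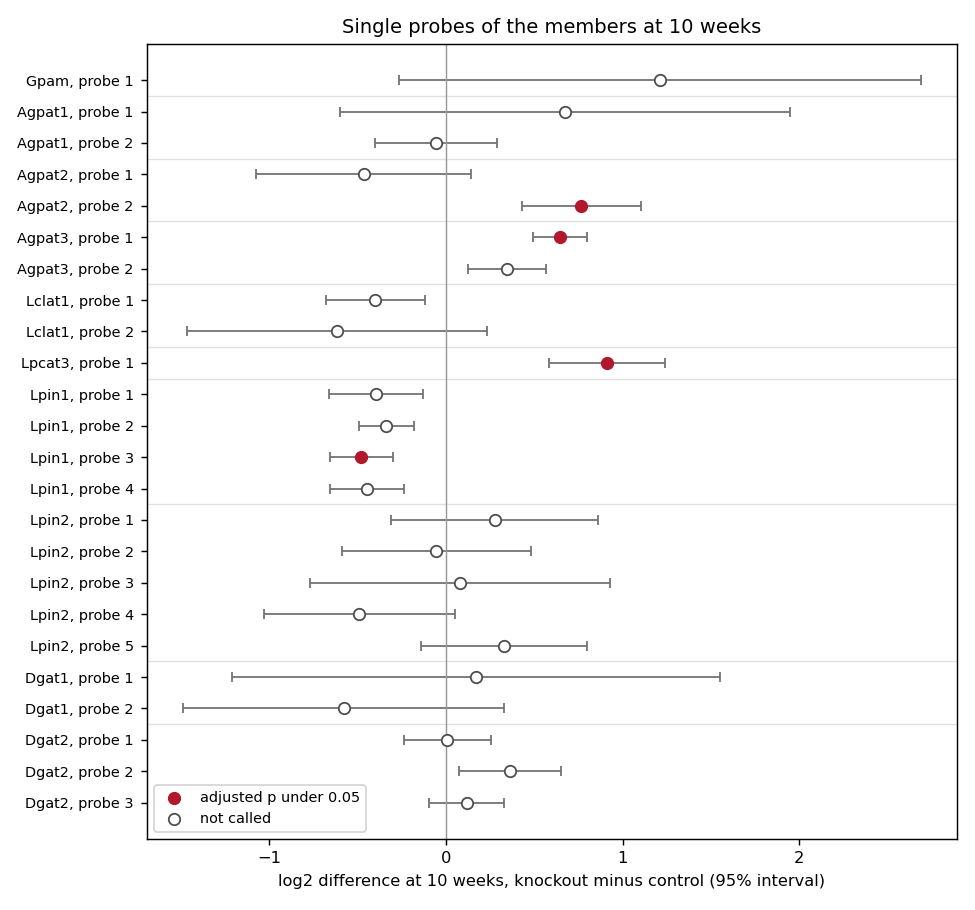
Log2 differences of the 24 single probes at 10 weeks, knockout minus control, with 95% intervals; filled points have a limma adjusted p under 0.05 over all probes. The 4 filled points are 1 probe each of Agpat2, Agpat3, Lpcat3 and Lpin1, and the other Agpat2 probe lies on the opposite side of 0.

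Counted by array values alone, knockout and control hearts at 10 weeks did not overlap for 3 of the 10 genes, Agpat3, Lpcat3 and Lpin1, against 6.6% of all genes. By single probe, 10 of 24 did not overlap, against 6.24% of all probes, and 4 of 24 were called, against 0.634%. Probes of a gene share its RNA and are not replicates of each other. The within-group SD, pooled over the 4 groups, was 0.0642 for Agpat3, 0.0710 for Lpin1 and 0.209 for Lpcat3, against 0.307 for the median gene. It was 1.03 for Gpam, 0.693 for Dgat1, 0.454 for Agpat1, 0.270 for Lclat1, 0.245 for Agpat2, 0.166 for Lpin2 and 0.114 for Dgat2. Agpat3 and Lpin1 had the smallest spreads of the set, and Gpam, Dgat1 and Agpat1 spread more widely than the median gene. These gene means average 1 probe for Gpam and Lpcat3, 4 for Lpin1 and 5 for Lpin2, and 11021 of the 19532 genes have 1 probe. The part of probe number in these SDs was not tested.

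At 2 weeks the 2 genes with the smallest p were Lclat1 and Lpin1, both lower in knockout hearts without passing the test. Lpin1 read -0.28, -0.12 and -0.20 in knockout hearts at 2 weeks, against 0.13, 0.05, 0.04 and 0.07 in control hearts at 2 weeks. All 3 knockout hearts lay below all 4 controls. The difference was -0.27 ± 0.09 (SE; 95% interval -0.46 to -0.09; limma, unadjusted p = 0.00731, adjusted p = 0.531), and the 4 probes differed by -0.25 to -0.29.

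Lclat1 read -0.12, -0.27 and -0.21 in knockout hearts at 2 weeks, against 0.54, 0.26, 0.53 and 0.62 in control hearts at 2 weeks. Again no knockout heart reached the lowest control. The difference was -0.69 ± 0.20 (SE; 95% interval -1.12 to -0.25; limma, unadjusted p = 0.00465, adjusted p = 0.489). Singly, A_52_P606287 differed by -0.96 ± 0.42 (limma, adjusted p = 0.710). Its groups did not overlap, and its control hearts ran from 0 to 1.10. A_52_P299358 differed by -0.41 ± 0.14 (adjusted p = 0.604), and its groups overlapped at 2 weeks. Groups at 2 weeks did not overlap for Lpin1 and Lclat1, 2 of the 10 genes, against 8.78% of all genes. By single probe this held for 4 of 24, against 8.85% of all probes. By single probe 0 of 24 were called at 2 weeks, against 0.0153% of all probes.

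The genes that rose at 10 weeks lay near their controls at 2 weeks. Agpat3 averaged 0.05 ± 0.08 in knockout hearts (n = 3) and -0.03 ± 0.09 in control hearts (SD, n = 4), a difference of 0.08 with a 95% interval of -0.10 to 0.26 (limma, adjusted p = 0.860). Lpcat3 averaged -0.02 ± 0.15 in knockout hearts (n = 3) and -0.19 ± 0.17 in control hearts (SD, n = 4), a difference of 0.17 with a 95% interval of -0.18 to 0.52 (adjusted p = 0.838). The other 6 genes differed by -0.23 for Dgat1 to 0.10 for Agpat1, with adjusted p of 0.816 or more. Some of these means join probes of opposite sign. Singly, the probes differed by 0.50 and -0.30 for Agpat1, -0.19 and 0.16 for Agpat2, and 0.04 and -0.50 for Dgat1. Those of Lpin2 ran from -0.51 to 0.47, while those of Dgat2 all lay below 0. Gpam at 2 weeks read -1.09, 0.89 and 0.86 in knockout hearts, against 1.80, -0.29, -0.36 and -0.46 in control hearts. The high control was replicate 1, and without it the Gpam difference at 2 weeks was 0.59 in place of 0.05. With each of the 15 arrays left out in turn, that difference ran from -0.29 to 0.71.

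**Figure D4:**
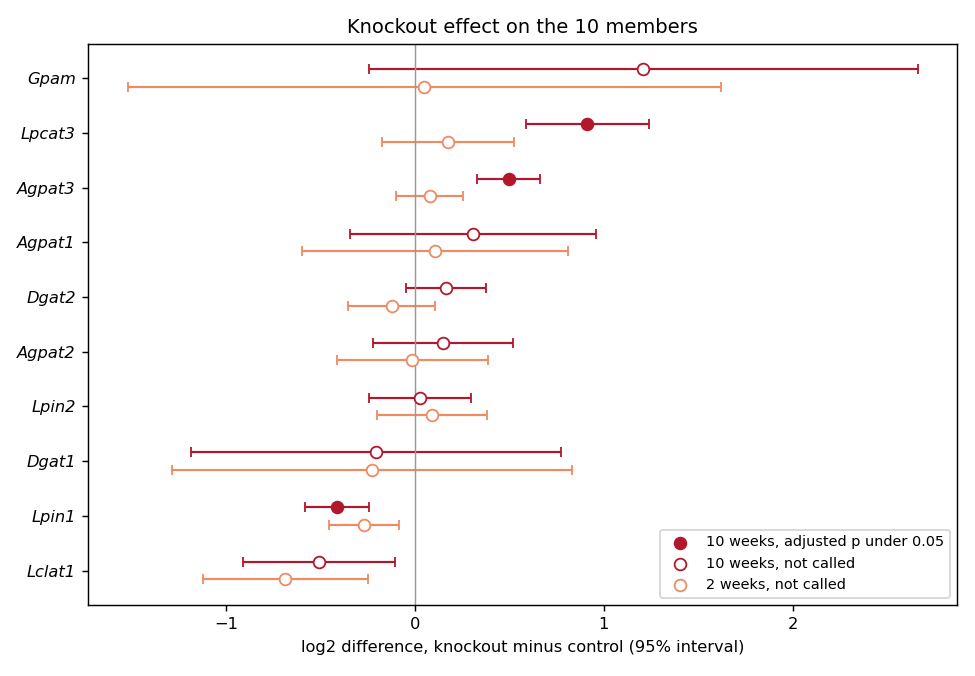
Log2 differences of the 10 genes in knockout against control hearts, separately for 10 and 2 weeks, with 95% intervals; filled points have a limma adjusted p under 0.05 over all genes. Agpat3, Lpcat3 and Lpin1 are filled at 10 weeks and none at 2 weeks, and the Gpam interval is the widest.

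Whether the knockout effect differed between the times was tested directly. The effect at 10 weeks minus that at 2 weeks was 0.42 ± 0.11 for Agpat3 (SE; 95% interval 0.17 to 0.66; limma, unadjusted p = 0.00263, adjusted p = 0.484) and 0.74 ± 0.22 for Lpcat3 (95% interval 0.26 to 1.22; unadjusted p = 0.00517, adjusted p = 0.530). For Lpin1 it was -0.14 (95% interval -0.40 to 0.11; adjusted p = 0.815) and for Lclat1 0.18 (95% interval -0.41 to 0.77; adjusted p = 0.886). None of the 10 genes was called, and limma called 0 of all genes in this contrast (0%), where 1331 had an unadjusted p under 0.05. By single probe, 0 of the 24 were called, against 0.00306% of all probes, and the smallest p was at Agpat3 A_51_P425490 (0.58, adjusted p = 0.159). The other Agpat3 probe, A_52_P523569, gave 0.25 (adjusted p = 0.809). A larger rise of Agpat3 and Lpcat3 at the later time therefore did not pass the adjustment.

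Within knockout hearts, Lpcat3 was higher at 10 weeks than at 2 weeks, with means of 0.86 ± 0.14 at 10 weeks (SD, n = 4) and -0.02 ± 0.15 at 2 weeks (SD, n = 3). The difference was 0.87 ± 0.16 (SE; 95% interval 0.52 to 1.22; limma, adjusted p = 0.0408), or 1.83-fold, and Lpcat3 was the only call among the 10 genes, against 0.389% of all genes, with 0.23% called higher. By single probe, Agpat3 A_51_P425490 was called as well (0.52, limma, adjusted p = 0.0143), among the 0.475% of all probes called. The other Agpat3 probe, A_52_P523569, differed by 0.14 ± 0.11 and was not called (adjusted p = 0.706). In checks chosen after seeing the data, the call of A_51_P425490 held without each array in turn (adjusted p 0.017 to 0.045). It ended without the least variable probes (0.31). The Lpcat3 call ended without any one of 10 of the 15 arrays (adjusted p up to 0.133): each of the 7 knockout arrays, control replicates 2 and 4 at 10 weeks and control replicate 1 at 2 weeks. The knockout hearts at 10 weeks also enter the comparison with controls, so these are not separate evidence. Agpat3 differed by 0.33 ± 0.08 (adjusted p = 0.125), Dgat2 by 0.33 ± 0.11 (adjusted p = 0.261), Agpat2 by 0.48 ± 0.19 (adjusted p = 0.361) and Agpat1 by 0.74 ± 0.33 (adjusted p = 0.419). Within control hearts, 10 minus 2 weeks gave 0 calls among the 10 genes and among all genes (0%; limma, 815 genes with an unadjusted p under 0.05), and the 10 differences ran from -0.36 for Gpam to 0.54 for Agpat1.

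The genes whose profile over the 15 arrays lay nearest to that of Agpat3, by root mean square difference of the log2 values with each gene's mean taken off, were Rpl10a (0.0931), Sqstm1 (0.0943), Brd2 (0.0973), Psmc1 (0.101) and Eif3c (0.101), against 0.372 for the median gene. At 10 weeks they differed by 0.45, 0.48, 0.48, 0.41 and 0.34 in that order. Small distances favour genes with little spread. The same arrays chose these genes, so differences near that of Agpat3 follow from the choice and are not separate evidence.

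Among 41 measured genes of the same pathways, such as other acyltransferases, phosphatases and enzymes of phosphatidylcholine, phosphatidylethanolamine and cardiolipin synthesis, limma called none at 10 weeks, where 0.686% of all genes were called. Of these, 24 lay above 0 and 17 below, 5 had an unadjusted p under 0.05 beside 9.96% of all genes, and the median difference was 0.08. The genes with the smallest p at 10 weeks were Gpd1, the glycerol phosphate dehydrogenase (0.96 ± 0.22, adjusted p = 0.0837), Pcyt2 of phosphatidylethanolamine synthesis (0.37 ± 0.10, adjusted p = 0.114), the lipid phosphatase Plpp1 (0.49 ± 0.13, adjusted p = 0.135) and Gnpat, the first acyltransferase of ether lipids (-0.24 ± 0.10, adjusted p = 0.461). At 2 weeks none was called either, 21 lay above 0 and 20 below, 3 had an unadjusted p under 0.05 beside 7.25% of all genes, and the median was 0.02. Agpat4 (0.65 ± 0.21, adjusted p = 0.531) and Crls1, the cardiolipin synthase (0.76 ± 0.32, adjusted p = 0.651), had the smallest p there.

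**Figure D5:**
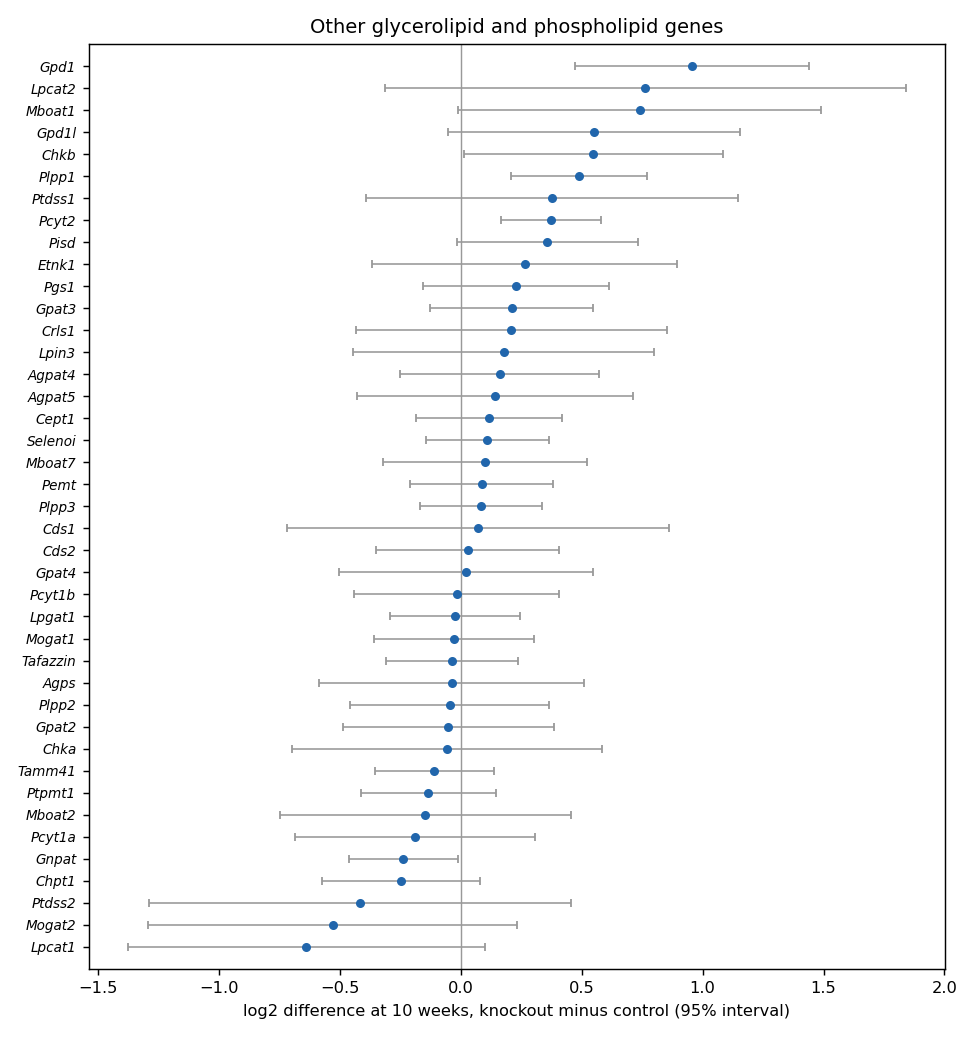
Log2 differences at 10 weeks, knockout minus control, of the 41 measured genes of the same pathways, with 95% intervals. Differences run from -0.64 for Lpcat1 to 0.96 for Gpd1, and none has a limma adjusted p under 0.05.

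Markers of cell types, cardiomyocytes included, were read as the mean centred log2 ratio over the measured genes of a list of 10. Ranges given as sums add these ratios over the measured genes, so they are not on the scale of the means. At 10 weeks none of the 8 lists (adipocyte, fibroblast, macrophage, endothelial, cardiomyocyte, atrium and conduction, skeletal muscle, red blood cell) parted knockout from control hearts. Adipocyte markers, 8 of 10 measured, summed to -1.11 to 0.86 in knockout hearts and -1.92 to -0.20 in control hearts at 10 weeks, and fibroblast markers, 10 of 10 measured, to -1.69 to 3.17 in knockout hearts and -5.98 to -0.24 in control hearts. Of the fibroblast markers, 9 of 10 lay above 0 at 10 weeks, beside 46.5% of all genes. Their median difference was 0.27, and none was called. Of the atrium and conduction markers, 7 of 10 lay below 0, with a median of -0.14, and 1 was called, beside 0.686% of all genes. That was Tbx5, a cardiac transcription factor named after its values were seen (-0.85 ± 0.17, limma, adjusted p = 0.0355). At 2 weeks 1 of the 8 lists parted the groups, the endothelial one, where 8.78% of single genes did so. Endothelial markers, 10 of 10 measured, summed to 1.25 to 2.51 in knockout hearts and -0.96 to 0.37 in control hearts, beside the lower Lpin1 and Lclat1 values there. Fibroblast markers moved further: they summed to 2.10 to 9.66 in knockout hearts and -3.06 to 3.27 in control hearts at 2 weeks. Of these markers, 10 of 10 lay above 0, beside 46.3% of all genes, with a median difference of 0.52. The unadjusted limma p was under 0.05 for 3 of them, beside 7.25% of all genes, and none was called. Only knockout replicate 1, at a mean of 0.21, lay below the highest control, at 0.33. The part of these markers in the values of the 10 genes at either time was not tested. Control replicate 1 at 2 weeks, with the highest Gpam value of its group, also had its group's highest adipocyte mean (0.61) and its highest mean of atrium and conduction markers (1.82), and their part in the Gpam value was not tested.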

How the data were processed

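The series holds 15 arrays of mouse ventricle RNA, labelled as biological replicates, so p-values measure the spread between these arrays. The authors deposited 1 value per probe and array, taken here as a log2 ratio because values fall on both sides of 0, and each probe had been centred on its median over the arrays. The log base, scan software, background correction and scaling are not stated in the sources used, and neither is signal over background. The table holds 41267 probes without missing values, of which 32664 carried 1 symbol, 45 several and 8465 mouse probes none, with 93 control spots. Array medians ran from -0.0207 to 0.0325 and array SDs from 0.457 to 0.565, and pairs of arrays correlated at -0.0582 to 0.142.

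Probes with 1 symbol were averaged per gene. The groups entered limma 3.58.1, run in R 4.3.3 (lmFit, eBayes, 4 group means, 11 residual and 2.07 prior degrees of freedom), two-sided, with Benjamini-Hochberg adjustment over all 19532 genes or 32664 probes of a contrast. The fit was also run on simulated data with known changes larger than those of the called members. That run checked the mean estimates and not the calls. Fold changes assume base 2.

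The 10 members, the 44 listed genes of the same pathways, 41 of them measured, and the marker lists were chosen with earlier results of these data known. Values in every array were set out for the members with the 4 smallest p at 10 weeks and the 2 smallest at 2 weeks, and those of Gpam and Dgat1 were added after their spread was seen. From the pathway list up to 4 genes at 10 weeks and 2 at 2 weeks were named by smallest p. The alternatives were quantile normalization, median centring of arrays, the most variable probe of a gene, leaving out the least variable 25% of genes or probes, array weights, robust moderation, the compared groups alone, the replicate number as a block, and leaving out each array.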

Additional observations from a re-analysis of the deposited data

Results flagged for a closer look

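In 6 of 30 groups of 4 arrays, over the 10 genes, 1 array lay apart from the other three by Dixon's criterion, where chance gives about 1 in 20 groups. For Agpat2, knockout replicate 4 at 10 weeks read -0.22, against 0.44 to 0.50 in the other knockout hearts of that time, and control replicate 4 at 2 weeks read -0.026, against -0.23 to -0.20 in the other controls. For Gpam, control replicate 1 at 2 weeks read 1.80, against -0.46 to -0.29 in the others. For Dgat1, control replicate 3 at 2 weeks read 1.08, against -0.12 to -0.04 in the others. The remaining 2 lay in tight groups of control hearts at 10 weeks: Agpat3 in replicate 4 at -0.080, against -0.13 to -0.12, and Dgat2 in replicate 3 at 0.044, against -0.04 to -0.03.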

How the results depend on the processing

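Of the 10 genes, 3 were called at 10 weeks. The count was 1 without the least variable genes, where Lpin1, Lpin2 and Dgat2 had no value. It was also 1 with the 10-week groups fitted alone and 1 with the replicate number as a block. With the most variable probe of a gene it was 2, and it ran from 1 to 3 when each array was left out. All genes called at 10 weeks numbered 134, against 63, 50 and 71 under the first 3 settings, 89 with the most variable probe and 61 to 142 without single arrays. By single probe the count of 4 became 0 without the least variable probes, 2 with the groups alone and 1 with the block. It was 3 under quantile normalization and 3 with robust moderation, where Agpat2 A_51_P238565 lost its call (limma, adjusted p = 0.0611 and 0.0524). With array weights it was 5, and without single arrays 1 to 4. The count of 1 within knockout hearts became 0 under quantile normalization, without the least variable genes, with array weights, with the groups alone and with the block, and 0 to 1 without single arrays. With the most variable probe it stayed 1, but Lpcat3 lost its call (adjusted p = 0.0563) and Agpat3 was called (0.52, adjusted p = 0.0282). Without the least variable genes, the Agpat3 difference at 10 weeks stayed at 0.50, and its SE was 0.142 against 0.077 in the main fit. The groups fitted alone hold fewer arrays. For lost calls under the other settings the cause was not tested. At 2 weeks, between the effects and within controls, 0 of the 10 genes were called under each alternative run.

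Same-numbered deviations correlated at -0.034 to 0.063, and 3 of 7 pairs matched their own number best. These were replicates 2, 3 and 4 at 10 weeks, with none at 2 weeks. The values do not decide whether replicate numbers pair the samples. With the block, Lpcat3 (adjusted p = 0.0599) and Lpin1 (0.0762) lost their calls at 10 weeks, Lpcat3 (0.138) lost its call within knockout hearts, and Agpat3 kept its call at 10 weeks. By single probe with the block, those of Lpin1 (0.0511), Lpcat3 (0.0693) and Agpat2 (0.0978) lost their calls at 10 weeks, and Agpat3 A_51_P425490 (0.0595) lost its own within knockout hearts.

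Signs turned only for differences not called under any setting. At 10 weeks, Agpat2 was -0.47 and Dgat1 0.17 with the most variable probe, and without single arrays Dgat1 ran from -0.57 to 0.17 and Lpin2 from -0.031 to 0.062. At 2 weeks, Agpat1 was -0.017 and Gpam -0.0090 with the block, Dgat1 0.043 and Lpin2 -0.079 with the most variable probe. Without single arrays at 2 weeks, Agpat1 ran from -0.062 to 0.34, Agpat2 from -0.16 to 0.14, Gpam from -0.29 to 0.71, Dgat1 from -0.41 to 0.064 and Lpin2 from -0.093 to 0.23. The difference between the effects was -0.28 for Agpat2 and 0.16 for Lpin2 with the most variable probe and -0.11 for Dgat1 with array weights, and without single arrays it ran from -0.068 to 0.41 for Agpat1, -0.34 to 0.40 for Dgat1 and -0.20 to 0.12 for Lpin2. Within knockout hearts, Dgat1 was 0.081 with the block and ran from -0.44 to 0.30. Within control hearts, without single arrays, Gpam ran from -0.64 to 0.18, Dgat1 from -0.21 to 0.19, Dgat2 from -0.023 to 0.076 and Lclat1 from -0.255 to 0.060.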
